A study of Mus musculus with 6 samples.

Results

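MHC class II cells without C1q are cells of the bladder mucosa that carried many transcripts of the antigen presentation genes Cd74, H2-Aa, H2-Ab1 and H2-Eb1 and next to none of the complement genes C1qa, C1qb and C1qc. They were chosen on raw counts of unique molecular identifiers (UMIs), which mark single captured mRNA molecules, among cells with over 500 genes. A member had a sum of at least 20 UMIs for the 4 MHC class II genes, more than its sum for 6 keratins (Krt5, Krt7, Krt8, Krt15, Krt18 and Krt19) and more than its sum for Col1a1, Col1a2, Col3a1 and Dcn. It also had a C1q sum of at most 2 UMIs and no UMI of the B cell gene Cd79a. This rule gave 509 of 55399 cells. Cells that passed the same MHC class II gate with a C1q sum of at least 5 UMIs are called C1q cells here, and there were 402 of them.

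The study profiled the torn-off mucosal layer of the bladder of 8-week-old wild type C57BL/6 mice by droplet-based single-cell RNA sequencing, in 6 libraries. The Healthy 1 and Healthy 2 libraries came from uninjured mice. Acute 1 and Acute 2 came from mice 48 h after cyclophosphamide (CPP), a chemotherapeutic drug that injures the bladder lining. Chronic 1 and Chronic 2 were collected on day 11 of a course of 4 rounds of CPP, and all mice of all groups were wild type. The libraries were made in batches whose assignment is not in the sources used here, so batch and condition cannot be told apart. The study gives a number of mice per condition, but how they were divided over the libraries is not in the sources used here, and p-values measure the spread between these libraries.

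Dendritic cells take up antigen in a tissue, load it onto MHC class II molecules and carry it to lymph nodes, where they prime T cells. Conventional dendritic cells fall into type 1 (cDC1), which express Xcr1 and Clec9a, depend on Irf8 and Batf3 and present antigen to cytotoxic T cells, and type 2 (cDC2), which in many mouse tissues express Cd209a, Sirpa and Clec10a and act mainly on helper T cells. After activation either type can enter a mature, migratory state marked by Ccr7 and Fscn1. Macrophages also carry MHC class II, but in most tissues they make C1q and express Csf1r, Adgre1 and Apoe. The question put to the data was what the MHC class II cells that lack C1q are, how they differ from the C1q cells beside them, and how they vary over healthy, acutely and chronically injured bladders.

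The libraries held 54604109 to 111985678 UMIs. Members had a median of 4291 UMIs, from 2805 in Chronic 1 to 6952.5 in Acute 1, and C1q cells a median of 3955.5. Doublets were called from simulated mixtures, with the share called in each library set by its number of cells. This marked 17.1% of the members (0% in Acute 1 to 26.7% in Acute 2) and 8.96% of the C1q cells. Of all cells, 7790 of 8347 in Healthy 1, 8937 of 9688 in Healthy 2 and 6520 of 6901 in Acute 1 were not called. The same held for 12326 of 13864 in Acute 2, 10238 of 11251 in Chronic 1 and 5119 of 5348 in Chronic 2. The called share of members lay above that of all cells in every library but Acute 1. For the 4 MHC class II genes, where a member has at least 20 UMIs, the 300 urothelial cells drawn per library averaged 0.310 to 1.33 UMIs. The highest drawn cell had 51 in Healthy 1 and 3 to 8 in the other libraries. Cell barcodes found in more than 1 library numbered 1637, and 29 members carried such a barcode, though no barcode was shared between members of different libraries. Acute 1 gave 14 members only.

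The C1q sum, which chose the members, left few cells between the classes. It was 0 UMIs in 467 members, 1 in 32 and 2 in 10, while C1q cells had a median of 57.5, and 9 gated cells had a sum of 3 or 4. At the MHC class II threshold, 5 members had a sum of 20 to 24 UMIs, and 2 cells that met the rest of the rule had 15 to 19. The keratin and collagen limits turned away 43 cells with a C1q sum of at most 2, whose medians were 51 MHC class II UMIs, 66 keratin UMIs and 11042 UMIs in all. No gated cell had a Cd79a UMI. The MHC class II genes are part of the rule and are given as a description. Cd74, the invariant chain that guides class II molecules to the endosome, averaged 19045 ± 4993 CPM (SD, n = 6 libraries; UMI counts scaled to 1 common total of all UMIs in the summed cells) in members and 15774 ± 3687 in C1q cells. H2-Aa averaged 6820 ± 1273 and 5428 ± 1212 CPM.

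**Figure D1:**
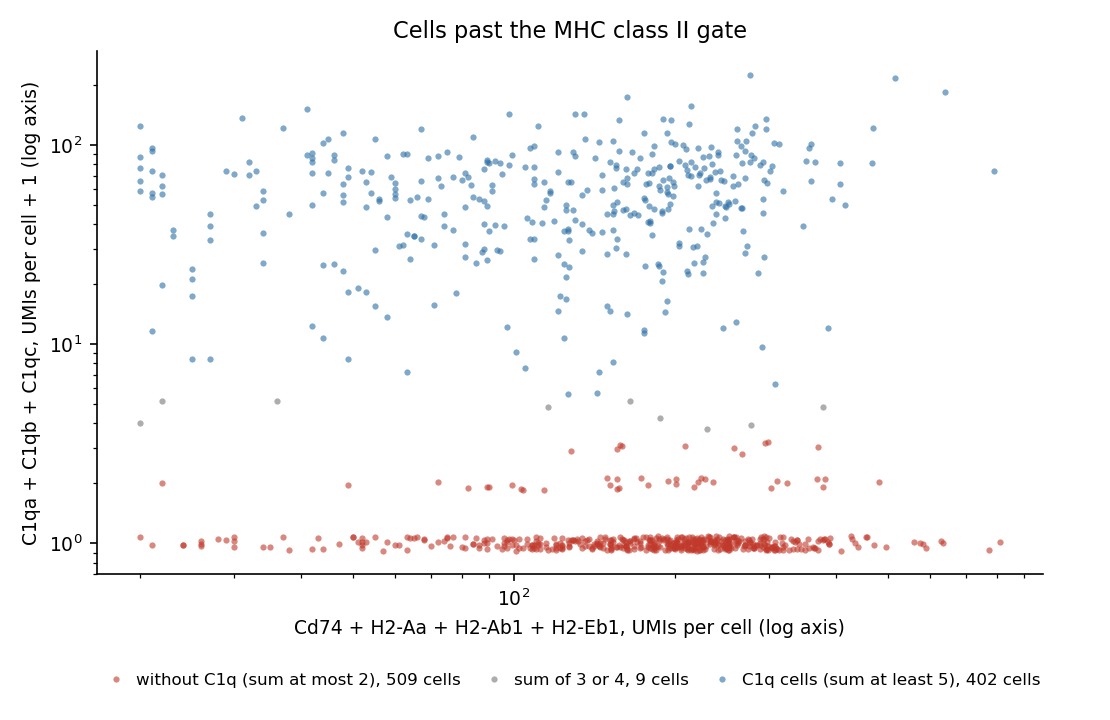
Each point is 1 cell past the MHC class II gate; the horizontal axis gives its UMIs for Cd74, H2-Aa, H2-Ab1 and H2-Eb1 and the vertical axis its C1qa, C1qb and C1qc UMIs plus 1, both on log axes, with a small vertical shift to part overlapping points. The 509 members lie at the bottom at a C1q sum of 0 to 2, 9 cells lie between, and the 402 C1q cells spread upward to 230 UMIs.

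Members made up about 1 in 100 cells of the mucosa and a lower share in the injured libraries on average, a difference that did not pass an exact test in either injury. Healthy 1 held 80 members, 0.958% of its cells with over 500 genes (95% Wilson interval 0.771% to 1.19%), and Healthy 2 held 148, 1.53% (1.30% to 1.79%). Acute 1 held 14, 0.203% (0.121% to 0.340%), and Acute 2 held 161, 1.16% (0.996% to 1.35%). Chronic 1 held 66, 0.587% (0.461% to 0.746%), and Chronic 2 held 40, 0.748% (0.550% to 1.02%). Both chronic libraries lay below both healthy ones, whereas the acute libraries lay on either side of Healthy 1.

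The mean share was 1.24% ± 0.403 (SD, n = 2) in Healthy, 0.682% ± 0.678 in Acute and 0.667% ± 0.114 in Chronic. The difference to Healthy was -0.561 percentage points in Acute (two-sided exact permutation test, p = 0.667) and -0.576 in Chronic (p = 0.333, the smallest p that 2 against 2 libraries allow). Without Acute 1 the acute difference was -0.0818 percentage points. Of all cells past the MHC class II gate, members were 55.4% ± 13 in Healthy, 46.6% ± 12.4 in Acute and 55.0% ± 7.07 in Chronic. C1q cells were 0.975% ± 0.197 of all cells in Healthy, 0.599% ± 0.417 in Acute and 0.560% ± 0.239 in Chronic. A share of cells is relative: fewer of these cells and more of the other cells in a library cannot be told apart.

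**Figure D2:**
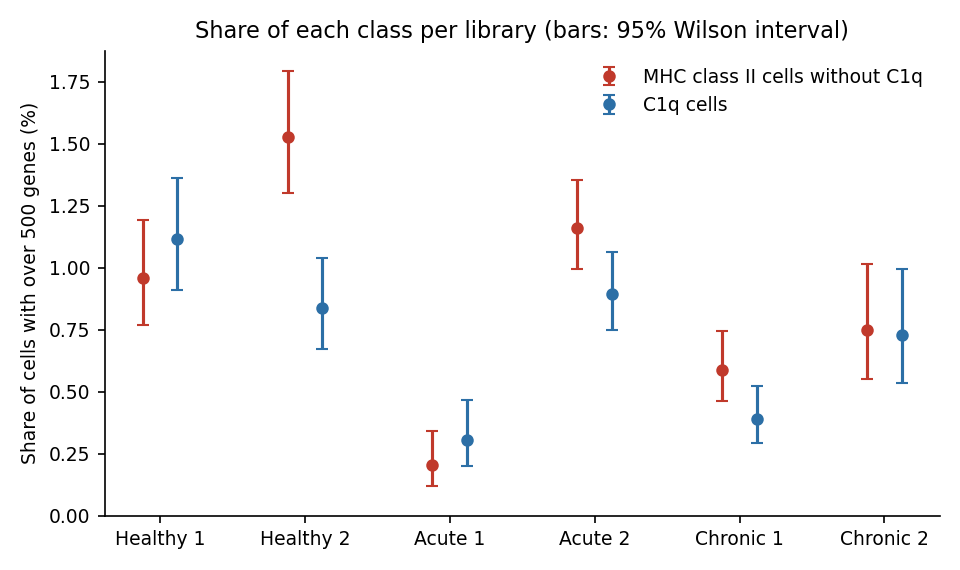
Share of all cells with over 500 genes, in percent, for MHC class II cells without C1q (red) and C1q cells (blue) in each of the 6 libraries; points are single libraries and bars 95% Wilson intervals, which cover counting error only. Members range from 0.203% in Acute 1 to 1.53% in Healthy 2, and both classes are lowest in Acute 1.

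The classes were then compared across all genes, with UMIs summed per library and class. Since the split into classes used C1q, this shows which other genes go with that split. The gate genes were left out of the counts below but stayed in the fit and in the adjustment, which ran over 2894 genes. Members had higher levels of all 4 general dendritic cell genes tested (Cd24a, Traf1, Ahr and Cst3) and lower levels of all 16 macrophage genes tested, in every library. The lists of the dendritic subsets and of MHC class II loading were mixed, with Cd209a, H2-Oa and H2-DMb2 among the genes that rose and others that fell. Of 2877 genes tested with edgeR's quasi-likelihood test with the library as a block and Benjamini-Hochberg adjustment, 825 (28.7%) passed an adjusted p of 0.05. Higher in members were 363 (12.6%), and 462 (16.1%) were lower. Log2 fold changes below are members minus C1q cells, with the standard error.

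Cd209a, a C-type lectin of the DC-SIGN family, had the smallest adjusted p of all genes that rose. Its lowest, median and highest level over the 6 libraries was 280, 405 and 646 CPM in members and 0, 9.69 and 16.9 CPM in C1q cells, without overlap (log2 fold change 5.57 ± 0.24, adjusted p = 7.7e-11, higher in 6 of 6 libraries). At least 1 Cd209a UMI was found in 61.1% of the members, 3.23% of the C1q cells and 0.278% of the urothelial cells, which had a median of 11591.5 UMIs. After each cell was thinned to 2000 UMIs, with 16 members and 12 C1q cells too shallow and left out, the shares were 44.4%, 1.54% and 0.111%. Klrd1, which encodes the lectin-like receptor CD94 best known from natural killer (NK) cells, ran from 121 to 320 CPM (median 187) in members and from 0 to 11.6 CPM (median 2.07) in C1q cells (5.83 ± 0.35, adjusted p = 3.9e-09). It was found in 43.0% of the members and 0.995% of the C1q cells, or 27.8% and 0.513% after thinning.

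The general dendritic list (Flt3, Zbtb46, Itgax, Kmo, Dpp4, Cd24a, Cst3, Traf1, Ahr and Bcl11a) had 4 genes abundant enough to test, and all 4 rose, at a median log2 fold change of 2.08 against 0.03 over all genes tested. Cst3, the protease inhibitor cystatin C, ran from 4668 to 11052 CPM in members and from 1891 to 4307 in C1q cells (1.21 ± 0.13). Cd24a, a surface glycoprotein, ran from 109 to 262 CPM and from 15.6 to 74.1 (2.23 ± 0.26). Traf1, an adaptor of tumor necrosis factor receptors, ran from 105 to 217 CPM and from 11.6 to 59.9 (2.17 ± 0.22). The aryl hydrocarbon receptor Ahr ran from 59.2 to 140 CPM and from 0 to 30.0 (1.99 ± 0.28). None of the 4 overlapped between the classes, which held, with members higher, for 3.75% of all genes tested, and for 5.98% with members lower.

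The table of Acute 1 lists none of Flt3, Itgax, Kmo and Dpp4, so these were read from the other 5 libraries. Flt3, the receptor for the growth factor that dendritic cells need, had 75 UMIs in members and 0 in C1q cells, at least 16.8-fold higher when the 0 is set to 3 UMIs over the class. It was seen in 13.1% of these members, and in 6.47% after thinning. Itgax, the integrin CD11c, ran from 36.8 to 57.5 CPM in members and from 0 to 28.1 in C1q cells (1.79 ± 0.38, adjusted p = 0.0021). In this fit of 5 libraries 849 of 3510 genes (24.2%) passed. Dpp4, a peptidase also called CD26, had 64 UMIs against 1, and Zbtb46, a transcription factor of conventional dendritic cells, had 30 against 4 over all 6 libraries. Fold ratios that rest on so few UMIs are wide: for Zbtb46 it was 5.20, with an exact 95% counting interval of 1.83 to 20.3.

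**Figure D3:**
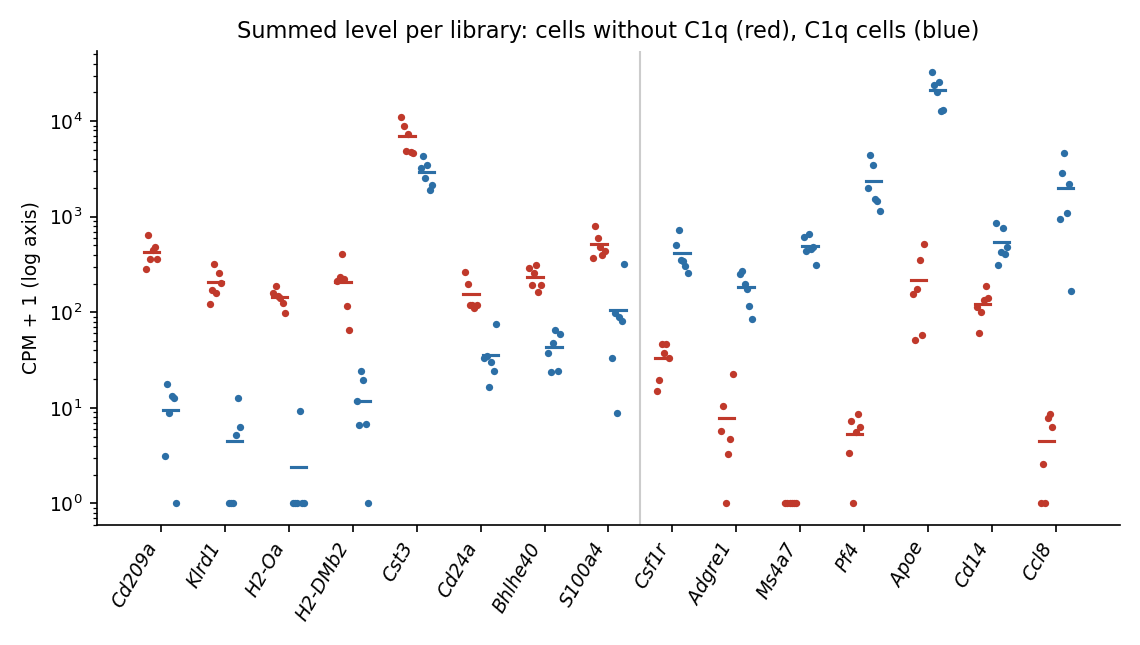
Levels of 15 genes in CPM plus 1 on a log axis, with the UMIs of each class summed per library; each point is 1 of the 6 libraries, red for MHC class II cells without C1q and blue for C1q cells, and the short lines are the means. For each of the 8 genes left of the divider every red point lies above every blue point, and for each of the 7 genes right of it every red point lies below. The genes were picked for display, and markers that did not part the classes, such as Clec10a, Irf8 and Batf3, are not drawn. Of all genes tested, 3.75% were higher in members without overlap and 5.98% lower.

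All 16 macrophage genes that could be tested, of 21 on the list, were lower in members, at a median log2 fold change of -4.61. Csf1r, the receptor for the macrophage growth factor, had a lowest, median and highest level of 14.0, 34.3 and 45.7 CPM in members and 254, 345 and 723 CPM in C1q cells (-3.84 ± 0.29, adjusted p = 5.1e-08). Adgre1, which encodes the F4/80 antigen, ran from 0 to 21.4 CPM against 84.6 to 267 (-4.94 ± 0.34). The transcription factor Maf, which maintains macrophages, was at most 7.53 CPM in members (-4.97 ± 0.31).

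Apoe, the apolipoprotein that tissue macrophages secrete, was at 216 ± 182 CPM in members and 21411 ± 7675 in C1q cells (-6.95 ± 0.44). It was seen in 23.0% of the members, where the deeper urothelial cells had 32.2%, and after thinning in 12.2% and 6.83%. Ms4a7 had 0 UMIs in members and 888 in C1q cells, at least 427-fold lower. Folr2, a folate receptor of resident macrophages, had 3 UMIs against 969. The platelet factor Pf4 (-8.83 ± 0.25), the scavenger receptor Stab1 (-5.88 ± 0.37), the coagulation factor F13a1 (-5.70 ± 0.34) and the complement receptors C5ar1 (-6.48 ± 0.29) and C3ar1 (-6.42 ± 0.35) did not reach 20 CPM in any library of the members. Taken over the 20 macrophage genes listed in all tables, members summed to 346 to 826 CPM per library and C1q cells to 17019 to 36971.

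The markers of the dendritic subsets did not move as a block. On the cDC2 list 8 genes were tested: Cd209a and the decoy interleukin-1 receptor Il1r2 (3.09 ± 0.34) rose, whereas Mgl2 (-1.15 ± 0.22), Sirpa (-2.08 ± 0.25), Clec4a2 (-1.75 ± 0.17) and the Fc receptor chain Fcer1g (-1.39 ± 0.12) fell. Mgl2, a galactose-binding lectin, was at 370 and 554 CPM in the C1q cells of the healthy libraries and at 75.2 and 10.6 in those of the chronic ones, with 81.7 and 202 against 48.9 and 5.35 in members. Clec10a ran from 58.9 to 177 CPM in members and from 47.6 to 273 in C1q cells (-0.28 ± 0.22, adjusted p = 0.38). Cd7, on the same list, had 96 UMIs in members and 0 in C1q cells of the 5 libraries that list it.

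On the cDC1 list 5 genes were tested. The lysosomal amidase Naaa rose (1.35 ± 0.23, higher in 5 of 6 libraries) and the lipid receptor Cd36 fell (-2.40 ± 0.28). The cDC1 transcription factors Irf8 (0.38 ± 0.24, adjusted p = 0.27) and Batf3 (0.53 ± 0.24, adjusted p = 0.12) did not pass. The defining cDC1 genes were sparse, and the table of Acute 1 does not list them. Xcr1, a chemokine receptor, had 39 UMIs in members and 2 in C1q cells (ratio 13.1, exact 95% counting interval 3.40 to 112). Clec9a, a receptor for dead cell remnants, had 60 against 1. They were seen in 5.25% and 9.49% of the members, or 2.71% and 3.55% after thinning. Wdfy4, needed for cross-presentation by cDC1, is listed in all 6 tables but was not among the genes tested in the fit of 6 libraries. In the edgeR fit of 5 libraries without Acute 1 it ran from 25.8 to 110 CPM in members and from 0 to 8.65 in C1q cells (3.33 ± 0.34, adjusted p = 2e-06). Over all 6 libraries it had 167 UMIs in members and 14 in C1q cells.

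Among genes of MHC class II loading, those of the H2-O and H2-DM molecules were higher in members and the lysosomal proteases were lower. H2-DM swaps the invariant chain fragment for antigen peptide, H2-O restrains H2-DM, and cathepsins and legumain digest the invariant chain and antigen. H2-Oa had 378 UMIs in members and 4 in C1q cells, in which 5 of 6 libraries had none. Its level ran from 96.4 to 187 CPM (median 144) in members and from 0 to 8.27 (median 0) in C1q cells (5.86 ± 0.43, adjusted p = 3.1e-08). Its partner H2-Ob had 137 UMIs against 5 in 5 libraries (4.21 ± 0.45, adjusted p = 3.1e-06).

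H2-DMb2 ran from 64.2 to 402 CPM (median 217) in members and from 0 to 23.4 (median 8.24) in C1q cells (4.20 ± 0.25). H2-DMb1, its neighbouring copy, ran from 616 to 800 CPM against 295 to 599 (0.71 ± 0.15, adjusted p = 0.0022), and H2-DMa from 626 to 1093 against 339 to 619 (0.82 ± 0.12). How reads that fit both DMb copies were counted is not given, so the split between H2-DMb1 and H2-DMb2 is uncertain. In the opposite direction, Lgmn (-3.89 ± 0.26), Cd63 (-2.19 ± 0.25), Ctsl (-2.04 ± 0.36), Ctss (-1.29 ± 0.15) and Ctsh (-0.41 ± 0.12) fell. That made 4 of 9 tested genes higher and 5 lower.

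The sequence just upstream of these genes is shown because both classes carry MHC class II but differ in H2-O and H2-DMb2. The table of RefSeq promoters (GRCm38.p6) held 6 of the 7 class II genes looked up (not H2-Ab1), all on chromosome 17. Capitals mark GATTGG or its reverse complement CCAATC, the core of the Y box that class II promoters share. The 120 bases before the start site, 5′ to 3′ on the strand of the gene, were as follows for H2-Aa (chr17:34287824-34287943, minus strand), H2-DMb1 (chr17:34153071-34153190, plus strand), H2-DMb2 (chr17:34145129-34145248, plus strand) and H2-Oa (chr17:34092259-34092378, plus strand).
H2-Aa: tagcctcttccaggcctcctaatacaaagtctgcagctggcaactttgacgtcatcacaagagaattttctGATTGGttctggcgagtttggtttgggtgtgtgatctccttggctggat
H2-DMb1: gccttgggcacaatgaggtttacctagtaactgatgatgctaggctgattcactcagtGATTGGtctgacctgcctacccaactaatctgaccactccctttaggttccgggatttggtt
H2-DMb2: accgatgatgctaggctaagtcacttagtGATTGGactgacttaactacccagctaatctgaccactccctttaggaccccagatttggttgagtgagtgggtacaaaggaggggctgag
H2-Oa: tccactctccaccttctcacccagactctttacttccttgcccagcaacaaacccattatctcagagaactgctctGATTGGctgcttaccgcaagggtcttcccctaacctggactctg
The motif was searched on both strands. All 6 windows held it, the other 2 being those of H2-Eb1, with 2 matches, and H2-Ob. It begins 49 bases before the start site in H2-Aa, 62 in H2-DMb1, 91 in H2-DMb2 and 44 in H2-Oa. Of the 32851 promoters in the table, 9.67% held it in the same 120 bases. A match is a description only.

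Of 9 genes of MHC class I and cross-presentation tested, 4 fell in members, 2 rose and 3 did not pass. B2m, the light chain of class I, was at 1848 ± 417 CPM in members and 3174 ± 450 in C1q cells (-0.80 ± 0.12), without overlap. H2-K1 (-0.82 ± 0.12) and H2-D1 (-0.70 ± 0.14) were lower in all 6 libraries, and the immunoproteasome subunits Psmb8 (0.64 ± 0.19) and Psmb9 (0.59 ± 0.17) were higher in 5 of 6. The costimulation list had 3 of 6 tested genes lower, namely Cd86, which activates T cells through CD28 (-0.89 ± 0.24), the checkpoint Vsir (-2.08 ± 0.20) and Lgals9 (-1.06 ± 0.20), and none higher. Cd83, a marker of activated dendritic cells, was at 609 ± 157 and 607 ± 326 CPM (0.11 ± 0.17, adjusted p = 0.71) and Cd40 at 37.6 ± 20.9 and 39.4 ± 23.7 CPM.

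Of the chemokines, 11 of 13 tested were lower in members and none was higher, at a median log2 fold change of -3.13. Ccl8, a monocyte attractant, was at 3.54 ± 3.44 CPM in members and 1992 ± 1629 in C1q cells (-8.60 ± 0.35). Ccl12 was at 3.18 ± 3.97 and 732 ± 381 CPM (-7.96 ± 0.32), and Ccl7 at 58.9 ± 36.1 and 2830 ± 2356 CPM (-5.21 ± 0.29). Cxcl2, which draws neutrophils, ran from 117 to 470 CPM in members and from 1813 to 10911 in C1q cells (-4.20 ± 0.35). The exceptions were Cxcl16 (-0.40 ± 0.15, adjusted p = 0.051) and Ccl5 (0.36 ± 0.39, adjusted p = 0.54). Ccl22, made by dendritic cells to attract regulatory T cells, was higher in members in the fit of 5 libraries, at 36.9 to 338 CPM against 0 to 16.7 (3.84 ± 0.31, adjusted p = 2e-07). Ccl17, which binds the same receptor, did not pass the filter on low counts of that fit and had 1085 UMIs in members and 45 in C1q cells (ratio 16.2, exact 95% counting interval 12.1 to 22.4). It ran from 9.96 CPM in Chronic 2 to 755 in Acute 2 in members and from 0 to 85.1 in C1q cells.

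Of 8 cytokines tested, 4 fell and none rose in members. Tnf ran from 46.7 to 117 CPM in members and from 155 to 764 in C1q cells (-2.44 ± 0.25), and Igf1 (-5.62 ± 0.43), Il1rn (-2.34 ± 0.34) and Osm (-2.10 ± 0.51) fell as well. Il1b ran from 636 to 1298 CPM in members and, more widely, from 56.2 to 1180 in C1q cells (1.07 ± 0.45, adjusted p = 0.088). All 6 pattern and lectin receptors tested were lower in members, among them the lipopolysaccharide coreceptor Cd14 (-2.19 ± 0.20) and Tlr2 (-1.55 ± 0.30). Of 3 chemokine receptors tested, Cxcr4 fell (-1.42 ± 0.38, adjusted p = 0.0097). Ccr2, which brings monocytes and their progeny out of the blood, averaged 103 ± 63.8 and 73.3 ± 59.5 CPM (0.72 ± 0.32, adjusted p = 0.11).

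Of 14 transcription factors tested 3 rose: Bhlhe40 (2.54 ± 0.19), Nr4a3, linked to dendritic cell migration (2.09 ± 0.24), and Nfil3 (1.05 ± 0.30). Besides Maf, Zeb2 (-1.36 ± 0.18) and Tcf4 (-0.68 ± 0.23) were among the 4 that fell. All 10 interferon response genes tested were lower in members, at a median of -1.38, with Rsad2 at 0 to 30.1 CPM in members and 16.9 to 347 in C1q cells (-3.50 ± 0.31). Of 19 immediate-early and dissociation genes tested, which respond to tissue handling, 13 were lower in members (Jun -1.24 ± 0.21, Ier3 -1.92 ± 0.16) and 1, Nr4a1 (0.69 ± 0.17), was higher. Of 12 p53 target genes, 3 were lower, the growth factor Gdf15 most (-5.52 ± 0.40), and the cell death gene Pmaip1 was higher (0.86 ± 0.21). Over all genes tested 16.1% were lower and 12.6% higher, so the p53 counts stand near those of all genes.

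Cycling genes were higher in members, in 6 of 8 tested, at a median of 1.22. Hmgb2 ran from 353 to 894 CPM in members and from 125 to 381 in C1q cells (1.41 ± 0.17), and Top2a, the topoisomerase of dividing cells, from 23.4 to 120 and from 7.81 to 39.4 (1.30 ± 0.32). The other genes named by their size of change were Itgb7, an integrin chain of mucosal leukocytes (3.93 ± 0.35), the protease Napsa (3.83 ± 0.38), the adhesion regulator Cytip (3.18 ± 0.30), AA467197 (2.96 ± 0.34), Grasp (2.57 ± 0.34), the calcium-binding S100a4 (2.50 ± 0.34), the actin-binding Lsp1 (2.45 ± 0.29), 2810417H13Rik (2.38 ± 0.27) and Rnase6 (2.33 ± 0.30). To be named, each had to be higher in 6 of 6 libraries. Of these 9, Itgb7, Napsa, Cytip, AA467197, S100a4, Lsp1 and Rnase6 did not overlap between the classes. With members higher this held for 3.75% of all genes tested, which were not picked by the size of their rise.

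Of the markers of other cell types, those of B and plasma cells, neutrophils, endothelial cells and mast cells that all 6 tables list had low sums. Members summed to 0 to 26.9 CPM for 4 of the 12 B and plasma cell genes, 0 to 18.9 for 4 of 7 neutrophil genes, 2.88 to 28.8 for the 6 endothelial genes and 7.70 to 39.8 for 1 of 7 mast cell genes. Ighm, the immunoglobulin M heavy chain of B cells, is listed for Acute 2 only and had 49 UMIs there in members (53.9 CPM) and 63 in C1q cells (125 CPM). The 3 T and NK cell genes listed in all tables summed to 153 to 434 CPM. Most of this was Klrd1 in every library, with 35 UMIs in Acute 1, where the sum was highest, beside 6 of Nkg7 and 5 of Gzma. The other genes had few UMIs over the libraries that list them. Members had 4 Cd3e UMIs, 2 of Cd3d, 11 of Cd3g, 18 of Nkg7 and 23 of Gzma. Il7r had 24, Cd8a 5, Klrb1c and Trbc2 3 each, and Cd4, Ncr1 and Trdc 0. Siglech, the marker of plasmacytoid dendritic cells, had 1 UMI in 4 libraries, and 3 of the 4 other plasmacytoid genes tested (Bst2, Irf7 and Tcf4) were lower in members. The Langerhans cell gene Cd207, listed for Healthy 2 only, had none. On the monocyte list Plac8 (1.76 ± 0.29) and Ms4a4c (0.92 ± 0.31) were higher and F13a1 lower, of 6 tested. Of 2 innate lymphoid genes tested, Tmem176a (-1.03 ± 0.22) and Tmem176b (-1.32 ± 0.23) were both lower. Urothelial genes outside the gate summed to 1031 to 3678 CPM in members and 1082 to 4490 in C1q cells, lowest in Healthy 1 and highest in Chronic 1 in both classes. Mesenchymal genes outside the gate summed to 37.8 to 1988 CPM in members and 65.7 to 1516 in C1q cells, lowest in Acute 1 and highest in Acute 2 in both. None of the 9 urothelial and 2 mesenchymal genes tested passed between the classes.

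The members were clustered to see which dendritic subsets they hold. Since the clusters come from the same counts, their genes and sizes are described without tests. Sub-cluster 1, with 127 cells, was led by Retnla, Bcl2a1b, Isg15, Tnip3 and Gch1, and 101 of its cells (79.5%) had a Cd209a UMI. Sub-cluster 2, with 119 cells, was led by Cd7, Klrd1, Clec10a, Cd300a, Ly6c2, Bst2, Ifitm6, Plac8, Napsa and S100a4 and was called cDC2-like from its 25 leading genes, of which 4 were on the cDC2 list, 2 on the monocyte list and 2 on the plasmacytoid list. Among the 10 named here the cDC2 list (Cd7 and Clec10a) and the monocyte list (Ly6c2 and Plac8) had 2 each. Its Cd209a level was 843 CPM and its Klrd1 level 384 CPM. The name depends on the settings: without called doublets no sub-cluster matched the cDC2 list best, and another sub-cluster, of 79 of the 422 remaining members, matched the mature migratory list. Sub-cluster 1 stayed unnamed.

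Sub-cluster 3, with 77 cells, was led by Irf8, Ppt1, Cxx1b, Cxx1a, Naaa, Rab7b, Clec9a, Cst3, Gpr65 and Ncoa7 and matched the cDC1 list (cDC1-like). Its Irf8 level was 789 CPM against 28.6 in sub-cluster 2, and 44 of its 77 cells had an Xcr1 or Clec9a UMI while none had Cd209a. Over all members, 54 cells had Xcr1 or Clec9a without Cd209a, 306 had Cd209a alone, 5 had both and 144 had neither. These counts include the 14 members of Acute 1, for which Xcr1 and Clec9a are not listed (8 counted as Cd209a alone and 6 as neither). Sub-cluster 4, with 67 cells, was led by 2810417H13Rik, Birc5, Spc24, Cdca3 and other genes of dividing cells, and 80.6% of its cells had a Cd209a UMI. None had an Xcr1 or Clec9a UMI, though these genes could not be seen in its 5 cells of Acute 1. Xcr1 and Clec9a were seen in 0% and 0.0667% of the urothelial cells.

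Sub-clusters 5 and 6 carried genes of other tissue cells. The 59 cells of sub-cluster 5 were led by Igfbp2, Krt15, Foxq1, Ly6d and Wfdc2, had a median of 9751 UMIs, and 72.9% of them were called doublets. The 37 cells of sub-cluster 6 were led by Dcn, Col1a2, Serpina3n, Sparc and Mgp, and 83.8% were called doublets. Cd209a was seen in 67.8% and 67.6% of their cells, against 61.1% of all members. The 16 cells of sub-cluster 7 were led by Apoe, Lyz2, Cxcl2 and Fcgr3, with 4484 CPM of Apoe, and stayed unnamed. The 7 cells of sub-cluster 8 were led by Ccl5, AW112010, Gzma, Apol7c, Fscn1, Serpinb6b, Zmynd15, Il4i1, Ccr7 and Nkg7, a set with mature migratory dendritic genes (Ccr7 and Fscn1 at 1380 CPM each) beside the lymphocyte genes Gzma and Nkg7. The ranking rests on 3 libraries for sub-cluster 6 and on 2 for sub-cluster 7, against 5 for each of sub-clusters 1 to 5. Sub-cluster 8 had at most 3 cells in any library, so its ranking rests on cells pooled over the libraries, without a comparison within a library. Called doublets made up 2 of its 7 cells (28.6%). With the members of sub-clusters 5 and 6 left out, the class comparison called 870 of 2220 genes tested, against 825 of 2877 in the main fit. All C1q cells stayed in that comparison, 36 of them called doublets. The difference in the share of members without these sub-clusters was -0.498 percentage points in Acute and -0.483 in Chronic.

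**Figure D4:**
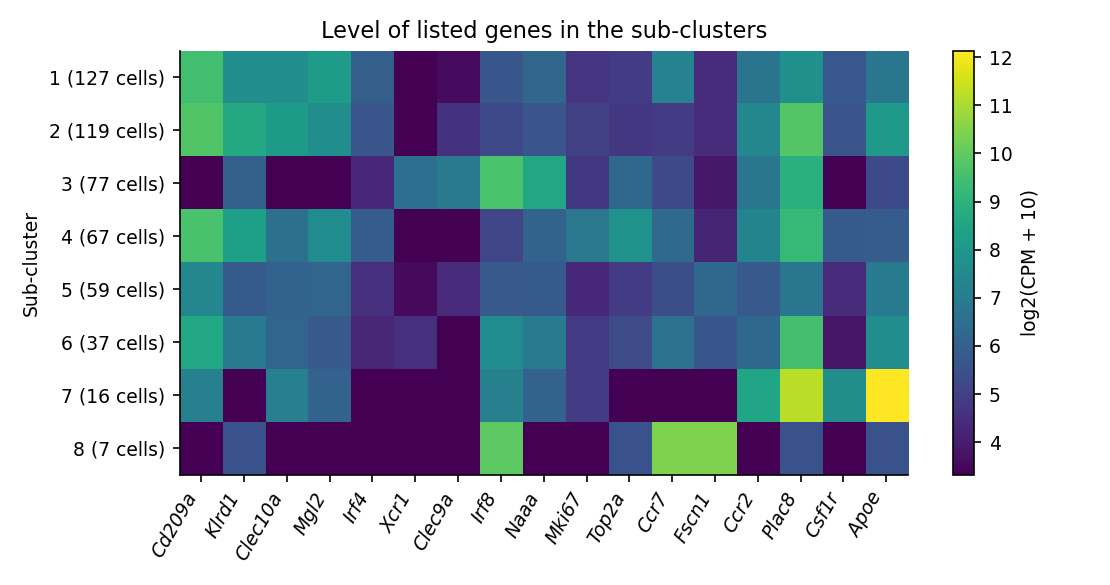
Levels of 17 genes as log2(CPM + 10), by color, in the 8 sub-clusters of the members, one per row with its number of cells. Cd209a is high in sub-clusters 1, 2 and 4 and at 0 in 3 and 8, Xcr1, Clec9a, Irf8 and Naaa mark sub-cluster 3, and Apoe is highest in sub-cluster 7.

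The sub-clusters were unevenly spread over the libraries. The cDC1-like sub-cluster held 28 of 80 members in Healthy 1 and 26 of 148 in Healthy 2. It held 1 of 14 in Acute 1, 9 of 161 in Acute 2, 5 of 66 in Chronic 1 and 8 of 40 in Chronic 2. As a share of members this was 35.0% (95% Wilson interval 25.5% to 45.9%), 17.6% (12.3% to 24.5%), 7.14% (1.27% to 31.5%), 5.59% (2.97% to 10.3%), 7.58% (3.28% to 16.5%) and 20% (10.5% to 34.8%). Both acute libraries were below both healthy ones, and Chronic 2 lay between the healthy libraries. Xcr1 and Clec9a were at 39.1 and 61.7 CPM in Healthy 1, 14.4 and 25.9 in Healthy 2, 5.50 each in Acute 2, 8.98 and 18.0 in Chronic 1 and 14.9 each in Chronic 2. In the last 3 libraries these rest on 2 to 5 UMIs a gene.

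The cycling sub-cluster held 4 of 80 and 16 of 148 members in the healthy libraries (5.0% and 10.8%). In the acute libraries it held 5 of 14 and 18 of 161 (35.7% and 11.2%), and in the chronic ones 14 of 66 and 10 of 40 (21.2% and 25%). Every injured library was above both healthy ones, though Acute 2 and Healthy 2 had overlapping intervals (7.19% to 17.0% and 6.76% to 16.8%). Sub-cluster 1 held 54 of 161 members in Acute 2, the highest share of the 6 libraries.

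Acute injury was compared with Healthy within the members to ask which genes changed 48 h after CPP. Of 3847 genes tested, 0 (0%) passed an adjusted p of 0.05 in edgeR's quasi-likelihood test, 110 (2.86%) had an unadjusted p below 0.05, and DESeq2 called 0 (33 unadjusted). Both acute libraries lay above both healthy ones for 591 genes (15.4%) and below for 571 (14.8%), and 48.7% of the genes had a fold change above 0. Among the 5 genes with the smallest p, Ppt1, a lysosomal thioesterase on the cDC1 list, was at 187 and 93.8 CPM in the healthy libraries and 26.6 and 30.7 in the acute ones (log2 fold change -2.22 ± 0.51, unadjusted p = 0.0011, adjusted p = 1). Irf8 was at 335 and 221 against 79.7 and 119 CPM (-1.40 ± 0.38). Gpx3, a secreted antioxidant enzyme, was at 6.84 and 7.69 against 8.86 and 128 CPM (3.53 ± 0.83), with Acute 2 alone far from the other libraries. Dctn4 (2.11 ± 0.55) and Commd3 (1.47 ± 0.39) were higher in Acute.

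As groups, the 7 tested genes of the cDC1 list were all below Healthy in Acute, at a median of -1.36 against -0.01 over all genes, and 5 of the 7 had both acute libraries below both healthy ones. These 7 were Batf3, Cadm1, Cd36, Irf8, Naaa, Ppt1 and Wdfy4, without Xcr1 and Clec9a. The lowest was Cd36 (-2.54), which was lower in members than in C1q cells. The 15 tested cycling genes were all above Healthy, at a median of 0.76, with 10 of 15 above in both libraries (Stmn1 at 157 and 291 against 806 and 396 CPM). Of 12 p53 target genes 8 were above Healthy, 7 of them in both libraries, at a median of 0.80. Cdkn1a, the cell cycle inhibitor p21, was at 472 and 348 CPM in Healthy and 682 and 778 in Acute (0.84 ± 0.32). Of 10 cDC2 genes 8 were above Healthy and 2 in both libraries, at a median of 0.14 and with fold changes from -0.54 to 1.19. Of 8 mature migratory genes 5 were above, at a median of 0.48. Above Healthy as well were 4 of 5 macrophage genes (median 1.22), 7 of 9 interferon genes (0.78) and 6 of 6 mesenchymal genes (1.23), the last in none of 6 above in both libraries. Of 10 urothelial genes tested 9 were below Healthy (median -0.32), and the 2 T and NK cell genes tested lay 1 on each side. Mesenchymal genes and called doublets were highest in Acute 2, which held the most cells and so had the largest share called by the rule. Their part in these values was not tested. None of these genes passed the adjusted test. The cDC1-like share of members was lower, and the cycling share higher, in both acute libraries than in both healthy ones. The part of this mix of sub-clusters in the list values was not tested. With sub-cluster 3 left out, 0 of 3106 genes passed in edgeR's test (76 at an unadjusted p below 0.05).

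Without Acute 1 the acute group is Acute 2 alone, and a lone library is assumed to vary like the others. The list medians were then -1.23 for cDC1 genes, 0.75 for cycling genes, 0.74 for p53 targets, 0.11 for cDC2 genes, 0.41 for mature migratory genes, 1.13 for macrophage genes, 1.02 for interferon genes, 1.98 for mesenchymal genes and -0.53 for urothelial genes. All 7 cDC1 genes were again below Healthy and all 15 cycling genes above, while the cDC2 genes divided into 5 above and 5 below. The log2 fold change without Acute 1 was -2.18 for Ppt1, -1.23 for Irf8, 4.08 for Gpx3, 2.06 for Dctn4 and 1.22 for Commd3, and of these Gpx3 passed (edgeR, adjusted p = 0.026).

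Chronic injury gave the same count against Healthy: 0 of 3847 genes (0%) passed, with 198 (5.15%) at an unadjusted p below 0.05 and 0 called by DESeq2 (82 unadjusted). Both chronic libraries lay above both healthy ones for 652 genes (16.9%) and below for 638 (16.6%), and 51.7% had a fold change above 0. Retnla, a secreted protein of alternatively activated myeloid cells and the leading gene of sub-cluster 1, was at 47.9 and 140 CPM in Healthy and 0 in Chronic 1, Chronic 2 and Acute 1, with 39.7 in Acute 2. Its 112 UMIs in Healthy against 0 in Chronic put it at least 13.4-fold lower, with an adjusted p of 0.77. In C1q cells it was at 419 and 1316 CPM in Healthy and at 0 and 10.6 in Chronic. Cxcr4, a chemokine receptor for marrow and tissue homing, was at 9.12 and 13.8 against 49.0 and 108 CPM (2.67 ± 0.60). Top2a was at 22.8 and 40 against 121 and 108 CPM (1.83 ± 0.41), Ms4a4c at 57.0 and 47.7 against 275 and 119 (1.93 ± 0.44), and Cdkn1a at 472 and 348 against 1188 and 950 (1.39 ± 0.32). The adjusted p was 0.77 for each.

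The chronic comparison shares the healthy libraries with the acute one. All 7 cDC1 genes tested were below Healthy in Chronic, at a median of -1.12 against 0.03 over all genes, with 6 of 7 below in both libraries. All 15 cycling genes were above, at a median of 1.41, with 11 of 15 above in both libraries, among them Tubb5 (1.71 ± 0.42). Of 12 p53 targets 9 were above and 6 in both libraries, at a median of 0.69. Of 10 cDC2 genes 8 were above, at a median of 0.27, with Mgl2 lowest at -2.26. All 5 macrophage genes tested (median 0.98) and 8 of 9 interferon genes (0.96) were above Healthy as well. So were 9 of 10 urothelial genes (median 0.19), none of them in both libraries, while 4 of 6 mesenchymal genes were below (median -0.28, lowest -3.88), 2 of them in both libraries. The part of these cells' RNA in the chronic values was not tested. Genes of mature migratory dendritic cells were below Healthy in 6 of 8 tested, 4 of them in both libraries, at a median of -1.07. The 2 T and NK cell genes tested lay 1 on each side (median -2.68, lowest -6.03). Sub-cluster 8, which holds genes of both lists, had 0 cells in Chronic 1 and in Chronic 2. With 2 libraries per group none of these list counts carries a test, and the all-gene shares of 16.9% and 16.6% stand beside them. The cycling share of members was above Healthy in both chronic libraries, and the cDC1-like share below both healthy libraries in Chronic 1 only. The part of this mix in the list values was not tested. With sub-cluster 3 left out, 0 of 3106 genes passed in edgeR's test (137 at an unadjusted p below 0.05).

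**Figure D5:**
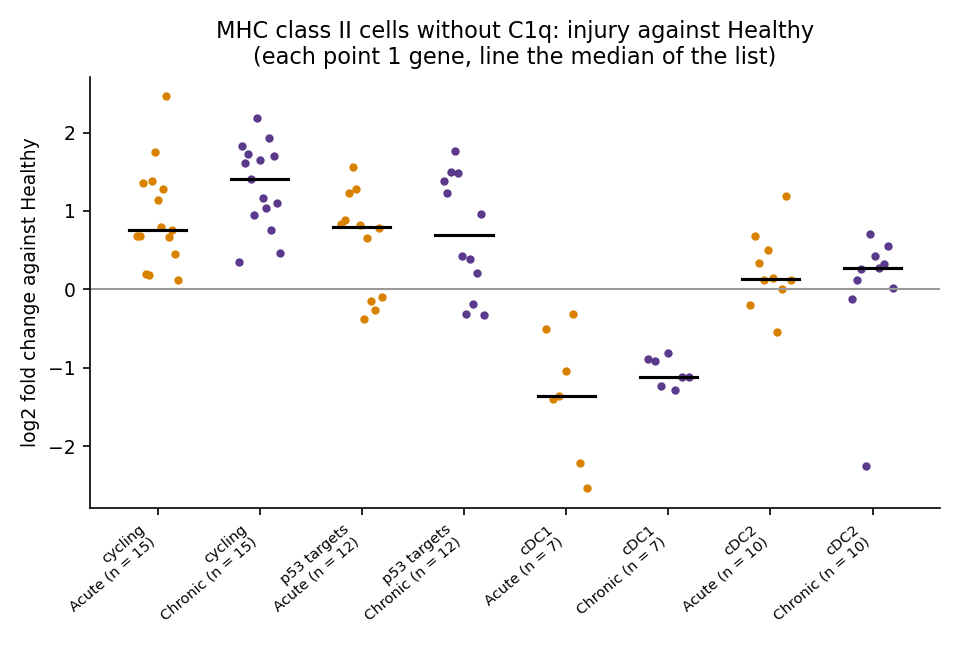
Log2 fold change against Healthy in MHC class II cells without C1q for the genes of 4 lists, in Acute (orange) and Chronic (purple); each point is 1 gene tested and each black line the median of the list. All 15 cycling genes lie above 0 and all 7 cDC1 genes below 0 in both injuries, while the cDC2 medians of 0.14 and 0.27 lie near 0. Xcr1 and Clec9a were not among the genes tested, and no gene passed the adjusted test.

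Whether the injury effect differed between members and C1q cells was tested as an interaction over 4383 genes, of which 5 (0.114%) passed in acute injury and 1 (0.0228%) in chronic injury. They were Hist1h2ap, Stmn1, Gpx3, Plac8 and Ms4a4c in acute injury and Plac8 in chronic injury. None passed once the called doublets, or sub-clusters 5 and 6, were left out, although the differences of all but Gpx3 stayed within 1 log2 unit of their first size.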

How the data were processed

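The authors processed the reads with Cell Ranger against mm10 and deposited raw, unnormalized UMI counts for each gene and cell in 1 table per library. The tables hold 54604109 to 111985678 UMIs per library. The table of Healthy 1 stops within its last line, those of Healthy 1 and Acute 1 leave out genes seen in few cells, and the genes listed differ between tables, so tests used the 14338 genes that every table lists and that are neither mitochondrial nor ribosomal. The members, gene lists and tests were chosen with earlier results of these data known.

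Doublets were scored with Scrublet in scanpy 1.11.5 with the share called set by the number of cells in the library, and they were kept except in an alternative. UMIs were summed per library and class (at least 10 cells), and fitted with edgeR 4.0.16 in R 4.3.3 (TMM factors, filterByExpr, quasi-likelihood test, Benjamini-Hochberg adjustment over all genes tested). CPM are UMI counts scaled to a common total over all UMIs of the summed cells, with TMM factors in the comparisons and without them for list sums, sub-clusters and single sparse genes. DESeq2 1.42.0 was the alternative. Leiden clusters used library-centred log counts at a resolution of 0.8. Scripts were tested on simulated data. Shares were compared with exact permutation tests, and intervals and limits set from 3 UMIs cover counting error only.

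Named genes were, between the classes, the 15 largest rises and 10 largest falls with an adjusted p below 0.05, at least 100 CPM in the higher class and the same direction in every library; for each injury, where under 5 genes passed, the 5 with the smallest unadjusted p, a level of 50 CPM or more, and no overlap between the injured and the healthy libraries; for sub-clusters, leading genes of at least 100 CPM; and genes of the lists. Promoter sequences are from RefSeq, GRCm38.p6. The values of 1 gene are not reported here.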

Additional observations from a re-analysis of the deposited data

Results flagged for a closer look

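Whether a gene's injury effect differed between members and C1q cells was tested as an interaction over 4383 genes with edgeR's quasi-likelihood test and Benjamini-Hochberg adjustment, and the few that passed were 5 in acute injury (0.114%) and 1 in chronic injury (0.0228%). The difference in log2 fold change (members minus C1q cells) was 5.10 for the histone gene Hist1h2ap (adjusted p = 0.011), 2.24 for Stmn1 (adjusted p = 0.023), 2.98 for Gpx3 (adjusted p = 0.023), -2.36 for Plac8 (adjusted p = 0.011) and -3.39 for Ms4a4c (adjusted p = 0.032) in acute injury, and -2.44 for Plac8 in chronic injury (adjusted p = 0.0091).

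For Plac8, which monocytes and some dendritic cells express, C1q cells had 38.9 and 22.3 CPM in Healthy, 284 and 161 in Acute and 292 and 554 in Chronic, whereas members had 423 and 316, 549 and 424, and 857 and 943 CPM. Stmn1, which loosens microtubules in dividing cells, was at 162 and 297 CPM in the members of Healthy and 833 and 402 in those of Acute, and at 199 and 201 against 63.2 and 117 CPM in C1q cells. Hist1h2ap was at 14.1 and 23.6 against 73.2 and 145 CPM in members, and at 8.65 and 27.9 against 0 and 4.18 in C1q cells. Over all 6 libraries Hist1h2ap had 31 UMIs in C1q cells, so the size of its difference rests on few UMIs. Ms4a4c was at 2.16 and 5.59 against 71.1 and 121 CPM in C1q cells, and at 58.7 and 48.7 against 119 and 144 in members. Its Healthy values in C1q cells lie near the floor, as these sums held 493682 and 359718 UMIs of all genes. Gpx3 was at 7.05 and 7.86 against 9.16 and 130 CPM in members, and at 106 and 148 against 103 and 232 in C1q cells.

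No gene passed in either injury without the called doublets (162 and 209 at an unadjusted p below 0.05) or without sub-clusters 5 and 6 (197 and 211), and without Healthy 2 no gene passed in acute injury (185). Of the 5 acute genes, 1 passed without Healthy 1 (Hist1h2ap), 4 without Acute 1 (all but Stmn1) and 2 without Acute 2 (Plac8 and Stmn1). In chronic injury no gene passed without Healthy 1 (210) or without Chronic 2 (269), and without Healthy 2 Ccl3, Ccl4 and Cxcl2 passed in place of Plac8. The chronic Plac8 difference was -2.69 without Healthy 1 (edgeR, adjusted p = 0.082), -2.31 without Healthy 2 (adjusted p = 0.089), -2.05 without Chronic 2 (adjusted p = 0.33) and -2.86 without Chronic 1 (adjusted p = 0.0027). DESeq2 was not run on the interaction. Without the called doublets the differences were 4.46 for Hist1h2ap, 2.28 for Stmn1, 1.86 for Gpx3, -2.87 for Plac8 and -3.02 for Ms4a4c in acute injury and -3.17 for Plac8 in chronic injury, over 3339 genes tested. Without sub-clusters 5 and 6 the Gpx3 difference was 1.26, and without Acute 2 it was 0.59. For the others the difference without those sub-clusters was 4.60 for Hist1h2ap, 2.44 for Stmn1, -3.37 for Ms4a4c and -2.57 for Plac8 in acute injury, with adjusted p from 0.19 to 0.23, and -2.54 for Plac8 in chronic injury, with an adjusted p of 0.16. The part of doublets in these calls was not tested beyond this.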

How the results depend on the processing

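The class comparison called 825 genes, 1249 with no filter on low counts, 536 without the library block and 428 of 1366 tested in cells thinned to 2000 UMIs. It ranged from 546 (without Healthy 1) to 849 when 1 library was left out. DESeq2 called 623, of which 622 were among the 825. No gene called in the main fit and tested again had the other sign in these settings, apart from 3 without sub-clusters 5 and 6. That setting left out members only and kept all C1q cells. All 389 values of single named genes kept direction and call. Acute against Healthy went from 0 to 15 genes with no filter, 6 with at least 20 cells per library, and 0 to 6 with 1 library left out (Car3, Cxcl14, Fam177a, Fdx1l, Gpx3 and Tonsl without Acute 1, and the hemoglobins Hba-a1, Hba-a2 and Hbb-bs without Healthy 1). Chronic against Healthy went to 12 with no filter, 1 with at least 20 cells, and 0 to 4 with 1 library left out (the hemoglobins and Retnla without Healthy 1, Ccl5 without Healthy 2). The gene called in Chronic with at least 20 cells per library was Ccl17, which was lower in Chronic. That setting leaves out Acute 1, for which Ccl17 is not listed, so the main fit did not test it. These genes were named after their values were seen, and the cause was not tested. The interaction gave 21 (acute) and 22 (chronic) genes with no filter, 0 and 0 without called doublets or without sub-clusters 5 and 6, 3 (chronic) with RLE size factors, and 0 to 8 and 0 to 4 with 1 library left out. Without 1 library the share difference ranged from -1.04 to -0.0818 percentage points in Acute and from -0.860 to -0.291 in Chronic.

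The labels do not say what a shared replicate number marks. The correlations of same-numbered libraries' deviations from their group means were 0.127 (Healthy and Acute), -0.306 (Healthy and Chronic) and -0.159 (Acute and Chronic), each a single value with 2 libraries per group, and the libraries were not treated as pairs. With the replicate number as a block acute and chronic injury gave 0 and 0 genes (64 and 140 at an unadjusted p below 0.05). At a resolution of 0.4 there were 5 sub-clusters, 261 members were cDC2-like at 0.4, 60 at 1.2, and 0 without called doublets. The mature migratory list was matched best by sub-clusters of 7 members in the main setting, 0 at 0.4 and 89 at 1.2. It was 0 with libraries not centred and 79 without called doublets. The injury comparisons rest on 2 libraries per group, with 14 members in Acute 1.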
